A study of Mus musculus with 12 samples.

Results

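The mouse carboxylesterase genes Ces1c, Ces1d, Ces1e, Ces1f, Ces1g, Ces2a, Ces2c, Ces2e, Ces3a and Ces3b were followed in liver RNA. These 10 genes, chosen by symbol, are 10 of the 28036 genes in the deposited table, and all 10 had enough counts to be tested. Livers came from C57BL/6J mice in 4 groups of 3. Control mice received normal chow and 0.5% CMC-Na (sodium carboxymethyl cellulose, a vehicle) by mouth. The MASH group (metabolic dysfunction-associated steatohepatitis) received a high-fat diet and the same vehicle. In the EE group, mice on the high-fat diet were given Eleutheroside E, a lignan glucoside, at 100 mg/kg. In the resmetirom group, mice on the high-fat diet were given resmetirom, which activates the beta form of the thyroid hormone receptor, at 3 mg/kg. Dosing by mouth lasted 4 weeks and followed 8 weeks of model establishment. The sources used here do not give age or sex. As a model the series rests on 1 strain and on diet alone, and it has no group that received either compound on normal chow.

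Carboxylesterases are serine hydrolases that split esters, amides and thioesters, and most of them sit in the lumen of the endoplasmic reticulum of hepatocytes. They clear drugs and pesticides, activate ester prodrugs, and some of them hydrolyse triacylglycerol, diacylglycerol or cholesteryl esters. Mice carry a cluster of recently duplicated genes in place of the few found in humans, and the names group them into the Ces1, Ces2 and Ces3 subfamilies. Ces1d is best known as triacylglycerol hydrolase, which mobilises stored fat for very low density lipoprotein (VLDL). Ces2 enzymes prefer small acyl groups and are also made in the intestine. Several of the genes are known targets of the xenobiotic receptors PXR and CAR.

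Levels are given in CPM, that is counts scaled to library depth, with the depth corrected by TMM factors (a trimmed mean of ratios between libraries), and fold changes on the log2 scale with their standard error (SE). A member is said to have risen or fallen only where edgeR's adjusted p, over all 13988 tested genes, was below 0.05. The libraries held 17297864 to 21793311 counts, so 1 CPM before scaling stands for 17.3 to 21.8 counts. A pair of libraries stood apart by the lowest TMM factors. Control replicate 1 had 35.4% mitochondrial counts against 2.40% to 4.38% in the other 11 libraries and a TMM factor of 0.5085, and resmetirom replicate 2 had a TMM factor of 0.6632. Across genes, the control libraries correlated with one another at 0.907 to 0.990 and the resmetirom libraries at 0.917 to 0.957, against 0.985 to 0.988 within the MASH and EE groups. A part of the results is therefore also given without control replicate 1 and resmetirom replicate 2, called both outlying libraries below. Resmetirom replicate 1, which had the highest TMM factor (1.413), stays in that fit. Where no such value stands, a dependence on these libraries is not excluded. With library totals alone in place of TMM, the median of all tested genes moved to 0.37 in MASH against control, to -0.32 in EE against MASH and to 0.22 in resmetirom against control. All 8 hepatocyte markers, among them Alb and Apoa1, were tested, and their summed level was 55383.7 to 155148.6 CPM across the 12 livers. Of 5 intestine markers, only Fabp2 had enough counts to be tested. Nothing in the labels says whether animals shared a cage or litter, so p-values measure the spread between these livers only. In bulk tissue, fewer hepatocytes of a kind and less RNA per cell cannot be told apart.

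Ces1e, Ces1f, Ces2a, Ces3a and Ces3b are set out first, in 3 courses over the groups. Ces1e and Ces1f were lowest in the 3 resmetirom livers, below each of the other 9. There, Ces1f fell 8.36-fold against MASH, and Ces1e was 2.97-fold lower, short of the threshold, but fell 3.15-fold against control. Ces2a was highest in the control livers and lower in all 9 livers on the high-fat diet. The shares of all genes with such orders of 3 livers against 9 were not counted. Ces3a and Ces3b were higher in the 3 EE livers than in the 3 MASH livers, without passing the test. Ces1c also lay higher in EE than in MASH livers, by less, and the groups overlapped for Ces2c in every comparison. Ces1d, Ces1g and Ces2e are described below. A fit over all 4 groups called 1 member, Ces1e (adjusted p = 0.0495), where 1.6% of all tested genes were called and 19.2% had an unadjusted p below 0.05. Ces2a (adjusted p = 0.0553) and Ces1f (adjusted p = 0.0594) lay just past the threshold. Without control replicate 1 and resmetirom replicate 2, 4 members were called, namely Ces1e, Ces1f, Ces2a and Ces3a, where 7.78% of the genes tested in that fit were called.

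**Figure D1:**
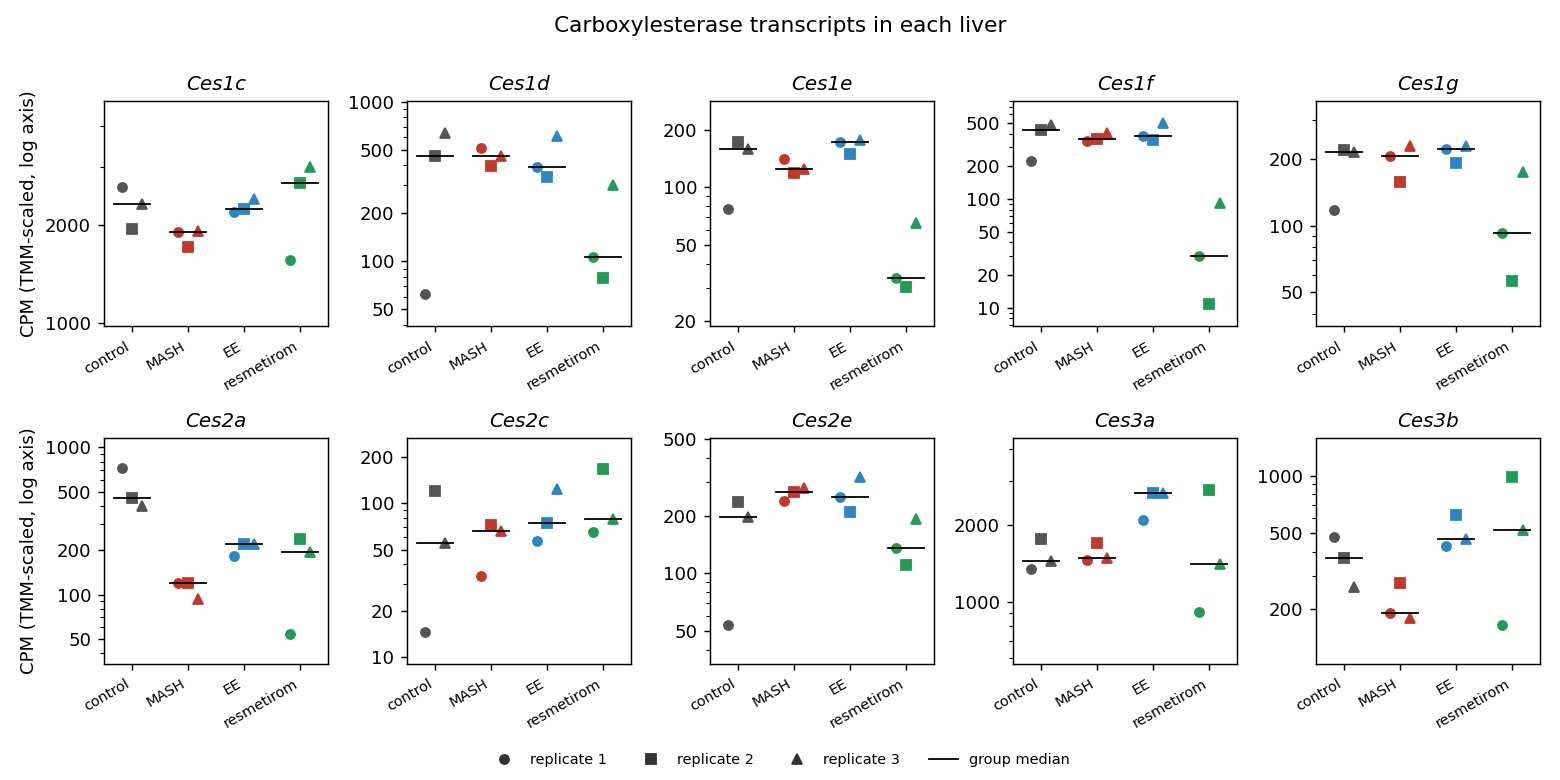
Level of each of the 10 carboxylesterases in each liver, in TMM-scaled CPM on a log axis whose range differs between panels. Each point is 1 liver, its shape gives the replicate number, and the line is the group median. The 3 resmetirom livers lie lowest for Ces1e and Ces1f, the 3 control livers highest for Ces2a, and control replicate 1 lies far below the other controls for Ces1d, Ces2c and Ces2e.

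Each member was also tested alone over the 4 groups with an exact permutation test of log2(CPM + 0.5) over the 12 livers, with p unadjusted over the 10 tests. The share of the sum of squares between groups was 84.1% for Ces1f (exact permutation p = 0.0162), 82.2% for Ces1e (p = 0.00851) and 72.7% for Ces2a (p = 0.00773). It was 53.8% for Ces1g (exact permutation p = 0.0556). For the other 6 members the exact permutation p was between 0.165 for Ces2e and 0.551 for Ces2c. With library totals alone, the exact permutation p of Ces1e was 0.0543.

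Ces1f, known as a second triacylglycerol hydrolase of hepatocytes (TGH-2), had the widest range of the family. It was at 223, 429 and 478 CPM in the control livers, 339, 357 and 406 CPM in the MASH livers, and 377, 350 and 503 CPM in the EE livers. In the resmetirom livers it was at 29.8, 10.8 and 91.1 CPM. Every resmetirom liver lay below every other liver, the nearest being control replicate 1. The group means were 377 ± 135 (control), 367 ± 34.7 (MASH), 410 ± 81.7 (EE) and 43.9 ± 42.0 CPM (resmetirom) (SD, n = 3 each). Against MASH, Ces1f fell by 3.06 ± 0.61 (log2, SE; 8.36-fold) with an edgeR adjusted p of 0.0481. Against control it fell by 3.10 ± 0.61 with an adjusted p of 0.0255. Against EE the log2 difference was -3.22 ± 0.61 with an adjusted p of 0.0555. The first call was near the threshold. It held in 2 of the 12 fits that each left out 1 library, without control replicate 1 (adjusted p = 0.0255) and without resmetirom replicate 3 (-4.18, adjusted p = 0.00801), and in the other 10 the adjusted p was 0.0673 to 0.157. The call against control held in 9 of 12 such fits and was lost without control replicate 2, control replicate 3 or resmetirom replicate 1 (adjusted p = 0.0549 to 0.0608), and the difference was -4.21 without resmetirom replicate 3. Without both outlying libraries Ces1f differed by -2.61 from MASH (adjusted p = 0.0154), -2.90 from control (adjusted p = 0.0122) and -2.75 from EE (adjusted p = 0.0174). That fit called 3.29%, 7.46% and 2.94% of tested genes in these comparisons, in the same order. With library totals alone the difference was -3.17 from MASH and -2.94 from control, with adjusted p of 0.175 and 0.149, and in fits of only the groups compared neither passed.

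Ces1e, also called egasyn, which holds beta-glucuronidase in the endoplasmic reticulum, had the same order of groups over a smaller range. The control livers had 77.2, 172 and 158 CPM, the MASH livers 140, 119 and 125 CPM, and the EE livers 173, 149 and 177 CPM. The resmetirom livers had 33.7, 30.1 and 65.5 CPM, again below each of the other 9. Ces1e fell by 1.66 ± 0.34 against control (3.15-fold, edgeR adjusted p = 0.029) and by 1.95 ± 0.34 against EE (3.86-fold, adjusted p = 0.0426). The difference from MASH was -1.57 ± 0.34 with an adjusted p of 0.063. Without both outlying libraries the differences were -1.73 (adjusted p = 0.0113), -1.74 (adjusted p = 0.0145) and -1.37 (adjusted p = 0.0204), and all 3 passed. When 1 library was left out at a time, the call against control held in 4 of 12 fits and was lost without control replicates 2 or 3, MASH replicates 1 or 2, EE replicates 2 or 3, or resmetirom replicates 1 or 2 (adjusted p = 0.0511 to 0.0782). The call against EE held in 2 of 12, without control replicate 1 or resmetirom replicate 3, and the other 10 gave adjusted p of 0.0577 to 0.171. With library totals alone the adjusted p were 0.28 and 0.312.

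The summed level of 7 pericentral hepatocyte markers was 6338.6 to 9621.8 CPM in control, 8658.8 to 11664.4 CPM in MASH and 10702.3 to 14240.9 CPM in EE livers, and 1440.8, 6987.8 and 6766.4 CPM in resmetirom livers, below all MASH and EE livers. Against MASH, 5 of the 7 differences were negative and 2 positive (median -0.78), and 1 gene fell. Oat had 619, 785 and 1228.5 CPM in MASH and 94.6, 150 and 171 CPM in resmetirom livers (-2.66 ± 0.31, edgeR adjusted p = 0.0089), a call lost without MASH replicate 2 (adjusted p = 0.051). Cyp2e1, another of them, had 6550.4 to 8053.9 CPM in MASH and 956, 4897.8 and 4974.5 CPM in resmetirom livers, without passing the test. The 2 positive ones were small, Cyp1a2 (0.22 ± 0.63) and Lgr5 (0.17 ± 0.48), and overlapped. The 7 periportal markers summed to 4313.6 to 4716.9 CPM in MASH livers. The sums were 6649.5 to 7590.6 CPM in control, 5939.8 to 7541.1 CPM in EE and 6241.9 to 7961.4 CPM in resmetirom livers, all higher. In MASH against control, 1 of the 7 differences was positive, Hsd17b13 (0.52 ± 0.39). In resmetirom against MASH 5 were positive, while Hal (-0.23 ± 0.21) and Hsd17b13 (-0.68 ± 0.39) were negative. Of these markers, 0 passed edgeR. Fabp2, an intestinal marker, had 33.5, 30.7 and 43.4 CPM in control, 108, 103 and 103 CPM in MASH and 39.9, 37.9 and 49.6 CPM in resmetirom livers, and fell in resmetirom against MASH (-1.30 ± 0.23, adjusted p = 0.0305), a call that held in 6 of the 12 fits with a library left out. Cfd, an adipocyte marker, had 16.5, 40.7 and 20.1 CPM in MASH livers and 0 in all 3 resmetirom livers, and fell (adjusted p = 0.0155), a call lost without any 1 of the MASH livers (adjusted p = 0.0561 to 0.0646). Of 6 adipocyte markers, only Cfd and Fabp4 could be tested. Fabp4 overlapped between resmetirom and MASH livers (-0.42 ± 0.45, edgeR adjusted p = 0.689). Plin1 of the adipocyte list and Vil1 of the intestine list had at most 0.0749 and 0.578 CPM in any liver. The part of these markers in the differences of Ces1e, Ces1f and the other members was not tested.

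Ces1g, an enzyme linked to hepatic cholesteryl ester and lipid handling, showed a smaller difference in the same direction. It had 118, 219 and 216 CPM in control, 207, 158 and 230 CPM in MASH, 222, 192 and 229 CPM in EE, and 92.9, 56 and 174 CPM in resmetirom livers. The resmetirom livers lay below all 3 EE livers but resmetirom replicate 3 overlapped the MASH livers. The log2 differences were -0.88 ± 0.37 from MASH (edgeR unadjusted p = 0.0353, adjusted p = 0.296) and -0.99 ± 0.37 from EE (adjusted p = 0.314). With 1 library left out at a time they ranged from -1.42 to -0.57 and from -1.53 to -0.69, and none passed. Over the 12 livers Ces1e and Ces1g were the most alike pair of members. Their root mean square log2 difference, after each gene was centred on its own mean, was 0.38, followed by 0.43 for Ces1c and Ces3a.

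Because these 2 genes varied most alike, the windows around their start sites are shown. RefSeq's promoter table (build GRCm38.p6) gives 250 bases before to 50 bases after the start, and it holds 7 of the 10 members, without Ces1d, Ces1f and Ces3a. Both windows lie on the minus strand, Ces1e at chr8:93229570-93229869 and Ces1g at chr8:93337160-93337459, and the counts themselves were made on GRCm39. Capitals mark runs of at least 8 identical aligned bases.
Ces1e: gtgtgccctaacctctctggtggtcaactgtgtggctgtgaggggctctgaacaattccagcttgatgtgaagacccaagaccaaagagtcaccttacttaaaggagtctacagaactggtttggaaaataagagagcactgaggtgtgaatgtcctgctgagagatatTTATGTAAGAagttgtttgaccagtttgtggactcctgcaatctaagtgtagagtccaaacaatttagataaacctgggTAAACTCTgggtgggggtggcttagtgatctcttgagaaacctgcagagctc
Ces1g: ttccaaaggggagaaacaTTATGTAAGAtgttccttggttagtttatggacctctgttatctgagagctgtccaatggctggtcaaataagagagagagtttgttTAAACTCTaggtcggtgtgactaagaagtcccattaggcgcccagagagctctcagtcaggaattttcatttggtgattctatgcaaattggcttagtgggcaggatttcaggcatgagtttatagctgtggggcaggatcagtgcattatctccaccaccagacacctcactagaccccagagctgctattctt
The alignment paired 144 bases, of which 69.4% were identical, and held 312 gap positions. The 2 capital runs, of at most 10 bases, held 18 of the identical bases. The window of Ces1c, whose levels lay farther from theirs (0.69 from Ces1g and 0.93 from Ces1e), paired 253 bases with Ces1g at 73.9% identity and 132 bases with Ces1e at 70.5%.

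Ces1d, the triacylglycerol hydrolase, had 62.4, 461 and 638 CPM in control, 517, 395 and 459 CPM in MASH and 388, 338 and 612 CPM in EE livers. It had 107, 78.1 and 303 CPM in resmetirom livers, below all 3 MASH and all 3 EE livers, while control replicate 1 was lower still. The differences of -1.49 ± 0.68 from MASH and -1.45 ± 0.68 from EE did not pass (edgeR adjusted p = 0.33 and 0.434). Over the 12 fits with 1 library left out they ranged from -2.31 to -1.16 and from -2.27 to -1.13, and none passed. The largest differences were those without resmetirom replicate 3. Alone over the 4 groups, Ces1d had an exact permutation p of 0.265, and of 0.0291 without control replicate 1.

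Ces1c encodes the secreted carboxylesterase that is abundant in mouse plasma, and it was the steadiest member, with an SD of log2 CPM of 0.27 over the 12 livers against 1.69 for Ces1f. Its levels were 2608.8, 1946.2 and 2324.4 CPM in control, 1896.6, 1713.0 and 1922.0 CPM in MASH, 2197.3, 2241.3 and 2396.0 CPM in EE, and 1565.6, 2692.0 and 2999.2 CPM in resmetirom livers. All 3 MASH livers lay below the control livers and below the EE livers. The differences were small, -0.31 ± 0.28 for MASH against control and 0.31 ± 0.28 for EE against MASH (edgeR adjusted p = 0.753 and 0.837). With library totals alone they became 0.12 and 0.00, so the first turned direction.

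Ces1c, chosen as a denominator after its small spread was seen, gave ratios that need no library scaling. Per 100 Ces1c counts, Ces1f had 8.56, 22 and 20.6 counts in control, 17.8, 20.9 and 21.1 in MASH, and 17.2, 15.6 and 21.0 in EE livers. It had 1.90, 0.401 and 3.04 in resmetirom livers, below all 9 others. Ces1e had 2.96, 8.86 and 6.80 counts per 100 Ces1c counts in control, 6.49 to 7.36 in MASH and 6.64 to 7.87 in EE livers, and 2.15, 1.12 and 2.18 in resmetirom livers. Ces1d had 2.39, 23.7 and 27.5 in control, 23.0 to 27.3 in MASH and 15.1 to 25.5 in EE livers, and 6.86, 2.90 and 10.1 in resmetirom livers, with control replicate 1 lowest. Such a ratio shows unequal change of 2 genes and does not say which of them moved.

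**Figure D2:**
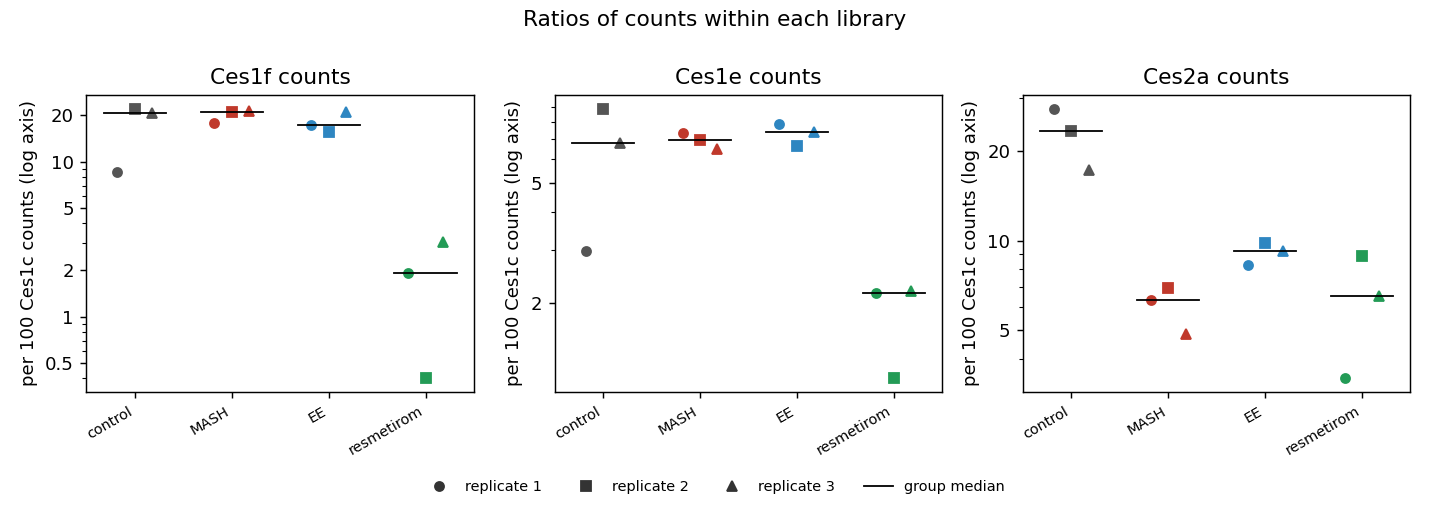
Counts of Ces1f, Ces1e and Ces2a per 100 counts of Ces1c within each library, on log axes. Each point is 1 liver and the line is the group median. The resmetirom livers lie below the other 9 for Ces1f (0.401 to 3.04) and Ces1e (1.12 to 2.18), and the control livers lie above the other 9 for Ces2a (17.2 to 27.7).

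Ces2a, a diacylglycerol and drug ester hydrolase and a textbook PXR target, had the largest fitted difference of the 10 members between MASH and control. It had 724, 454 and 400 CPM in control livers, 120, 119 and 93.7 CPM in MASH, 183, 220 and 221 CPM in EE, and 54.2, 240 and 196 CPM in resmetirom livers. Every control liver lay above every liver on the high-fat diet, and every EE liver above every MASH liver, while the resmetirom livers spanned both. MASH differed from control by -2.25 ± 0.44 (4.75-fold, edgeR unadjusted p = 0.000276, adjusted p = 0.198). EE differed from control by -1.34 ± 0.43 (adjusted p = 0.179) and resmetirom by -1.69 ± 0.44 (adjusted p = 0.0575). EE was above MASH by 0.91 ± 0.43 (adjusted p = 0.679). None of these passed edgeR in the fit of all 12 livers. DESeq2 gave adjusted p of 0.000395 for MASH (-2.27) and 0.00381 for resmetirom, each against control. It called 0.622% and 11.2% of tested genes in these comparisons. Without resmetirom replicate 1, edgeR gave adjusted p of 0.0108 for MASH, 0.0465 for EE and 0.0406 for resmetirom (-1.27), each against control. That fit called 0.0351%, 0.485% and 3.25% of tested genes in these comparisons. In the other 11 fits with 1 library left out none of these 3 passed. Their adjusted p there reached 0.961 for MASH, 0.494 for EE and 0.0921 for resmetirom. Without both outlying libraries, the difference was -1.94 for MASH (adjusted p = 0.159) and -1.77 for resmetirom (adjusted p = 0.0495). Per 100 Ces1c counts, Ces2a had 27.7, 23.3 and 17.2 counts in control, 4.87 to 6.93 in MASH, 8.31 to 9.82 in EE and 3.46 to 8.90 in resmetirom livers. Resmetirom replicate 1, the lowest liver for Ces2a, also had the highest summed level of 10 Kupffer cell markers (864 CPM against 73.2 to 514 CPM) and of 8 stellate cell markers (596 CPM against 131 to 260 CPM), and their part in the result was not tested.

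Ces2e, which hydrolyses drug esters, had another order of groups. It had 53.9, 236 and 196 CPM in control, 238, 264 and 279 CPM in MASH, 249, 208 and 318 CPM in EE, and 136, 110 and 192 CPM in resmetirom livers. The MASH livers lay above the control livers, by 0.68 ± 0.42 (edgeR adjusted p = 0.65), but by 0.28 without control replicate 1 and resmetirom replicate 2. The resmetirom livers lay below the MASH livers by 0.84 ± 0.42 and below the EE livers by 0.83 ± 0.42 (adjusted p = 0.378 and 0.491). Alone over the 4 groups, Ces2e had an exact permutation p of 0.165, and of 0.0323 without control replicate 1. Ces2c, an acylcarnitine hydrolase, had 14.5, 120 and 54.8 CPM in control, 33.9, 71.7 and 66.4 CPM in MASH, 56.7, 74.8 and 124 CPM in EE, and 65.4, 166 and 79.2 CPM in resmetirom livers. The groups overlapped for Ces2c in every comparison.

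The coding sequences of Ces2a and Ces2e were 84.3% identical. Their start windows are shown because the MASH livers lay below the control livers for Ces2a and above them for Ces2e. Neither difference passed edgeR. Both windows lie on the plus strand (RefSeq, GRCm38.p6), Ces2a at chr8:104733753-104734052 and Ces2e at chr8:104926010-104926309. Capitals again mark runs of at least 8 identical aligned bases.
Ces2a: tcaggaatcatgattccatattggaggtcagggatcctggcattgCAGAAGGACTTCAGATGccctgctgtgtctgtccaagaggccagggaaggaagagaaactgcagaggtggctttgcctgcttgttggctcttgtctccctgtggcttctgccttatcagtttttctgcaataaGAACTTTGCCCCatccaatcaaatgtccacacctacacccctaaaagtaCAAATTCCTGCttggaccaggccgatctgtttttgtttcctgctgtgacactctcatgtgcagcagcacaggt
Ces2e: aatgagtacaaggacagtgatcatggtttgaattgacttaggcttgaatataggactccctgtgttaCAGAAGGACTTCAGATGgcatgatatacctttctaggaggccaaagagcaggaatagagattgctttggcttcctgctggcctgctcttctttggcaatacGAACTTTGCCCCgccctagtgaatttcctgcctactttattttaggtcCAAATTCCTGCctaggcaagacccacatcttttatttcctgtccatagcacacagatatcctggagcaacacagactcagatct
Of 261 aligned bases 75.5% were identical, with 3 capital runs, the longest of 17 bases. Both strands of the 7 windows were searched for the nuclear receptor half-sites AGGTCA and AGTTCA and for CAAAGTCCA, a site of HNF4A. The 1 match was AGGTCA in Ces2a, on the plus strand, starting at position -226 from the start site. AGGTCA occurs in 16.3% of the 32851 RefSeq promoter windows of this length, AGTTCA in 14% and CAAAGTCCA in 0.475%. The match is a description of letters and not of a binding site.

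Ces3a and Ces3b, liver esterases of the endoplasmic reticulum, are near copies. Over the aligned longest open reading frames they were 95.3% identical, with 194 identical bases in a row, against 78.7% to 95.3% (median 80.9%) over the 14 pairs within a subfamily and 69.8% to 73.6% over the 31 pairs between subfamilies. Of all 150-base windows, 2.37% in Ces3a and 2.0% in Ces3b also occur in another Ces gene, and so do 3.35% in Ces2c. The split of reads between Ces3a and Ces3b is therefore uncertain, and the sources used here do not give the counting rule for such reads. The other 7 members had 0 shared windows.

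Ces3a had 1341.5, 1771.3 and 1449.8 CPM in control, 1465.9, 1708.4 and 1493.2 CPM in MASH, 2108.7, 2692.0 and 2691.3 CPM in EE, and 910, 2770.2 and 1408.1 CPM in resmetirom livers. The EE livers lay above all control and all MASH livers, and the resmetirom livers spanned the whole range. EE differed from MASH by 0.68 ± 0.36 (edgeR adjusted p = 0.711) and from control by 0.72 ± 0.36 (adjusted p = 0.344). Alone over the 4 groups, Ces3a had an exact permutation p of 0.207, and of 0.00351 without resmetirom replicate 2, the highest of its group.

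Ces3b had 478, 373 and 261 CPM in control, 192, 276 and 180 CPM in MASH, 431, 621 and 464 CPM in EE, and 166, 984 and 518 CPM in resmetirom livers. EE livers lay above MASH livers, by 1.23 ± 0.49 (edgeR unadjusted p = 0.0283, adjusted p = 0.627). Resmetirom differed from MASH by 1.36 ± 0.49 (unadjusted p = 0.0172, adjusted p = 0.229), and the groups overlapped through resmetirom replicate 1. That difference was 1.79 without resmetirom replicate 1 (adjusted p = 0.0386, where 1.15% of tested genes were called) and 0.66 without resmetirom replicate 2. Per 100 Ces3a counts, Ces3b had 35.6, 21.1 and 18 counts in control, 13.1, 16.2 and 12.0 in MASH, 20.4, 23.1 and 17.2 in EE, and 18.2, 35.5 and 36.8 in resmetirom livers. All MASH livers lay below the other 9 in this ratio.

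Counted by comparison, the members moved as follows. In MASH against control, edgeR called 0 of 10 members, where 0.0143% of tested genes were called. At an unadjusted p below 0.05 it was 1 member, Ces2a, against 9.23% of tested genes. DESeq2 called Ces2a, where it called 0.622% of tested genes. The members' median log2 difference was -0.06, and that of all genes -0.02. Lower without overlap were Ces1c and Ces2a (9.41% of all genes), and higher was Ces2e (10.2%).

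In EE against MASH, edgeR called 0 of 10 members, where 0.00715% of tested genes were called, and 1 member, Ces3b, had an unadjusted p below 0.05 (7.49% of tested genes). DESeq2 and limma voom called 0 members too. The members' median was 0.34, with 8 of 10 positive, and that of all genes -0.02, with 52.4% negative. Without overlap, 5 of 10 members were higher (Ces1c, Ces1e, Ces2a, Ces3a and Ces3b) and 0 lower, where 16.7% of all genes were higher and 15.5% lower. In a fit of the EE and MASH livers alone, edgeR called Ces2a (0.90, adjusted p = 0.0209), Ces3a (0.67, adjusted p = 0.0295) and Ces3b (1.22, adjusted p = 0.0285), and 746 genes in all (5.63% of those tested). Same-numbered MASH and EE livers deviated together from their group means in these same expression values, but no label says that they are paired. A fit of these 2 groups with the replicate number as a block was added after seeing the data. It called 5 members, Ces1c (0.30, adjusted p = 0.0448), Ces1e (0.37, adjusted p = 0.0123), Ces2a (adjusted p = 0.00518), Ces3a (adjusted p = 0.00495) and Ces3b (1.23, adjusted p = 0.000316), where 20.7% of tested genes (2745) were called. The block was read from the values that it tests, and it leaves fewer residual degrees of freedom than the 8 of the main fit. Its p-values are therefore not further support. With the block in the fit of all 12 livers, 0 members passed. All 8 hepatocyte markers were positive in EE against MASH too (median 0.58, 0 passed edgeR), with a summed level of 100904.0 to 111406.5 CPM in EE and 78421.1 to 91946.8 CPM in MASH livers, and their part in the members' differences was not tested. With library totals alone in the fit of 12 livers, the 5 differences shrank to 0.00 (Ces1c), 0.08 (Ces1e), 0.61 (Ces2a), 0.38 (Ces3a) and 0.93 (Ces3b).

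In resmetirom against MASH, edgeR called 1 of 10 members, Ces1f, where 0.665% of tested genes were called, 0.329% lower and 0.336% higher. At an unadjusted p below 0.05 it was 5 members, against 15% of tested genes. The members split into 5 positive and 5 negative differences, with a median of -0.36 against 0.06 for all genes. Without overlap, 4 members were lower (Ces1d, Ces1e, Ces1f and Ces2e), where 12.3% of all genes were, and 0 were higher, where 11.6% were.

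**Figure D3:**
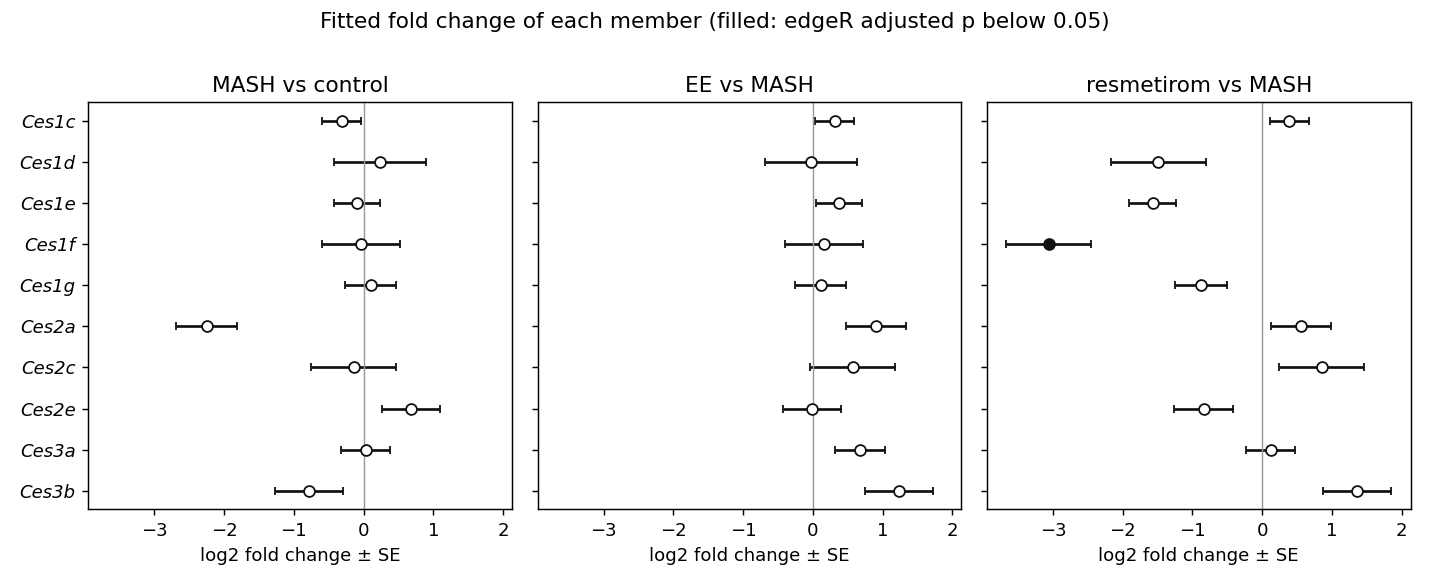
Fitted log2 fold change of each member, with its SE as a bar, for the 3 comparisons named over the panels. A filled point passed edgeR's adjusted p of 0.05. Only Ces1f in resmetirom against MASH is filled (-3.06), Ces2a lies farthest from 0 in MASH against control (-2.25), and Ces3b in EE against MASH (1.23).

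The 3 remaining pairs of groups share livers with those above, and their values are given side by side with them and not as further support. In EE against control, edgeR called 0 of 10 members, where 0.1% of tested genes were called, 1 member (Ces2a) had an unadjusted p below 0.05 (16.1% of tested genes), and DESeq2 and limma voom called 0. Without overlap, Ces3a was higher (13.7% of all genes) and Ces2a lower (13.5%). In resmetirom against control it called Ces1e and Ces1f, both lower, where 3.16% of tested genes were called, 1.75% as lower and 1.41% as higher. At an unadjusted p below 0.05 it was 3 members, Ces2a being the other, against 22.9% of tested genes. These 3 were lower without overlap (10.9% of all genes) and 0 were higher (9.93%). In resmetirom against EE it called Ces1e, lower, where 0.307% were called, 0.15% lower and 0.157% higher, and 3 members had an unadjusted p below 0.05, against 11.8% of tested genes. Without overlap, 5 members were lower in resmetirom than in EE livers (Ces1d, Ces1e, Ces1f, Ces1g and Ces2e), where 8.7% of all genes were, and 0 were higher, where 9.09% were.

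As a family, the 10 members made up 0.289% of all counts in control replicate 1 and 0.671% and 0.703% in the other control livers. The share was 0.597% to 0.640% in MASH, 0.634% to 0.742% in EE, and 0.446%, 0.473% and 0.643% in resmetirom livers. Of nonmitochondrial counts, control replicate 1 had 0.448%. Within the family, Ces1c and Ces3a together held most of the counts in every liver. The Ces3 share of the family's counts was 39.8%, 46.8% and 40.8% in EE livers and 32.2%, 38.3% and 31.8% in MASH livers, so all EE livers were higher. The Ces2 share was 13.9%, 13.1% and 10.5% in control livers and 7.10% to 8.78% in the 9 livers on the high-fat diet.

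**Figure D4:**
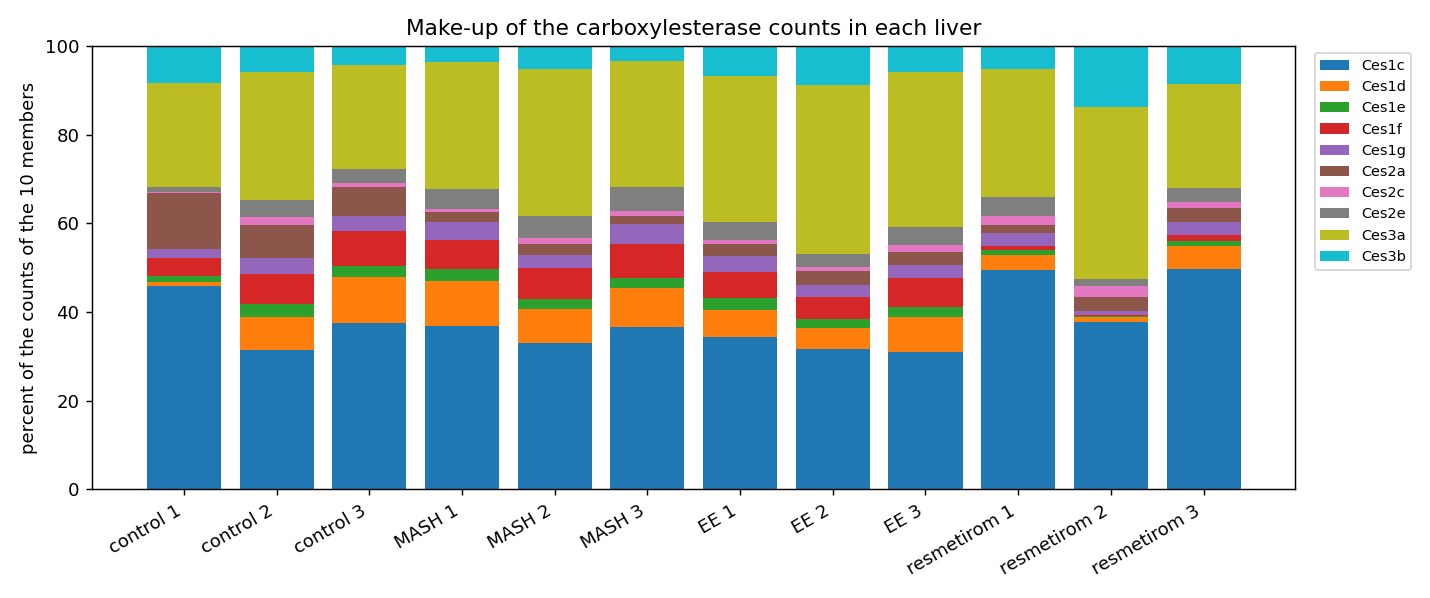
Percent of the summed counts of the 10 members that came from each member, in each of the 12 livers. The bars show counts, not counts per length. The Ces2a segment is widest in the control livers (12.7% in control replicate 1), the Ces1f segment is thin in the 3 resmetirom livers, and resmetirom replicate 2 has the highest Ces3 share (52.6%).

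Ordered by level per length (scaled CPM per kilobase of the longest annotated transcript, group medians), Ces1c (1271.6) and Ces3a (709) led in the control livers, without overlap between them or with the rest. Ces2a (232), Ces1d (230), Ces1f (223) and Ces3b (155) followed, each overlapping the next, and Ces1g (90.6), Ces1e (76.2), Ces2e (72.5) and Ces2c (27.8) came last, again each overlapping the next. In MASH livers Ces2a (60.6) stood in place 8, below Ces3b (79.9) without overlap and level with Ces1e (60.2). In EE livers Ces3a (1315.4) and Ces1c (1226.1) led with overlapping ranges. In resmetirom livers Ces1f (15.5, range 5.60 to 47.3) was last by its median, overlapping Ces1e (16.2, range 14.5 to 31.6).

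Other carboxylesterase genes, Ces1b, Ces2b, Ces2g and Ces4a, were also tested, and Ces1a, Ces1h, Ces2f, Ces2h and Ces5a were not. In resmetirom against control, 1 rose and 1 fell, and 0 passed edgeR in the other 5 pairs of groups. Ces1b had 99.3, 43.1 and 43.3 CPM in control, 28.3 to 42.4 CPM in MASH, 32.4 to 38.7 CPM in EE and 19.8, 24.3 and 16.5 CPM in resmetirom livers. It fell by 1.62 ± 0.32 against control (edgeR adjusted p = 0.0265), and by 1.24 without both outlying libraries (adjusted p = 0.0123). That call was lost without resmetirom replicate 3 (adjusted p = 0.0603). Ces4a had 1.00, 2.92 and 1.12 CPM in control, 2.13, 6.02 and 1.44 CPM in MASH, 11.8, 12.0 and 10.9 CPM in EE, and 3.77, 122 and 20.7 CPM in resmetirom livers. It rose by 4.79 ± 1.06 against control (adjusted p = 0.0366), a call that held in 2 of the 12 fits with a library left out. Without resmetirom replicate 2 and control replicate 1 the difference was 2.57 (adjusted p = 0.102). The 3 EE livers lay within 10.9 to 12.0 CPM for Ces4a, above all control and MASH livers.

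Among 24 tested genes of other ester and lipid hydrolysis (25 listed, Cel not tested), 1 rose and 2 fell in resmetirom against control, and 0 passed edgeR in the other 5 pairs of groups. Pnpla2, the adipose triglyceride lipase, had 45.9, 57.5 and 63.0 CPM in control and 89.7, 147 and 113 CPM in resmetirom livers and rose by 1.07 ± 0.26 (edgeR adjusted p = 0.0451). Bche, butyrylcholinesterase, had 55.1, 72.3 and 98.2 CPM in control and 33.2, 15.9 and 38.6 CPM in resmetirom livers and fell by 1.36 ± 0.31 (adjusted p = 0.04). Lypla1, a lysophospholipase, had 136, 129 and 139 CPM in control and 74.6, 73.7 and 78.5 CPM in resmetirom livers and fell by 0.83 ± 0.16 (adjusted p = 0.0255). The EE livers also lay below all control livers for Bche (30.7 to 38.7 CPM) and Lypla1 (80.0 to 94.2 CPM), without passing. For Pnpla2 they had 60.4 to 92.5 CPM and overlapped the control livers. The MASH livers overlapped the control livers for all 3 genes. Of the 3 calls in resmetirom against control, Pnpla2 held in 1 of the 12 fits with a library left out, Bche in 2 and Lypla1 in 7. Without both outlying libraries Pnpla2 lost its call (0.76, adjusted p = 0.0742). The list's median log2 difference was 0.09 in MASH against control, -0.03 in EE against MASH and -0.33 in resmetirom against MASH.

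Of 10 genes that work with carboxylesterases in VLDL assembly, among them Apob and Mttp, 0 passed edgeR in any pair of groups. Apob had 2290.8, 3659.8 and 4010.1 CPM in control, 2855.8 to 3368.8 CPM in MASH, 1751.7 to 2099.5 CPM in EE and 1202.7 to 2145.3 CPM in resmetirom livers. Of 12 nuclear receptors and partners, 0 passed edgeR in any pair of groups either. Nr1i3, which encodes CAR, had 190, 74.2 and 113 CPM in control, 93.3 to 118 CPM in MASH, 97.7 to 139 CPM in EE and 17.3, 29.7 and 65.4 CPM in resmetirom livers. Its difference between resmetirom and control was -1.75 ± 0.45 (adjusted p = 0.0551). Every resmetirom liver was below every other liver for Nr1i3, as for Ces1e and Ces1f. The same order held for Alb, Oat, Lypla1, Abcc3 and Ces1b, so it is not particular to these genes. The share of all genes with this order was not counted.

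Among 14 tested targets of PXR and CAR (16 listed, Cyp2b10 and Sult2a1 not tested), 0 rose in any pair of groups. Of the 14 fitted differences, 7 were positive in MASH against control (median -0.09) and 6 in resmetirom against MASH (median -0.32). Against MASH, 2 fell in resmetirom livers. Abcc3, an export pump, had 246, 254 and 367 CPM in MASH and 31.8, 4.5 and 19.4 CPM in resmetirom livers and fell by 3.95 ± 0.60 (edgeR adjusted p = 0.0155). Its call was lost without any 1 of the 3 MASH livers (adjusted p = 0.0594 to 0.0776), and the difference was -4.58 without resmetirom replicate 1. Cyp2b9 had 39.0, 3.60 and 79.2 CPM in MASH livers and at most 0.974 CPM in resmetirom livers (adjusted p = 0.0392, and 0.0554 without both outlying libraries), and its call held in 2 of the 12 fits with a library left out. Control livers (0 to 0.603 CPM) and EE livers (0.218 to 1.27 CPM) were as low as the resmetirom livers for Cyp2b9. Only the MASH livers stood higher, by 7.75 ± 1.35 over control (adjusted p = 0.187). In MASH against control, 1 fell: Cyp2c55 had 6.23, 9.89 and 8.73 CPM in control and 0.946, 1.13 and 0.820 CPM in MASH livers (-3.10 ± 0.37, adjusted p = 0.0177). That call was lost in 7 of 12 fits with a library left out, each of the 3 MASH livers among them (adjusted p = 0.0526 to 0.298). Cyp2c55 also fell in EE against control (-3.62 ± 0.39, adjusted p = 0.0111), and Abcc3 in resmetirom against EE (-3.45 ± 0.58, adjusted p = 0.0416), as the 1 gene of the list in each. The first call held in 7 of the 12 fits with a library left out (lost without control replicates 2 or 3 or any 1 EE liver) and the second in 3, without control replicate 1, resmetirom replicate 1 (-4.08) or resmetirom replicate 2. Cyp3a11, the classical PXR target, had 2214.3, 4024.7 and 3954.7 CPM in control, 677, 350 and 369 CPM in MASH, 314, 181 and 256 CPM in EE and 946, 98.7 and 134 CPM in resmetirom livers. As with Ces2a, all control livers lay above all livers on the high-fat diet, and edgeR called Cyp3a11 lower in resmetirom than in control (-3.11 ± 0.75, adjusted p = 0.0459), but not without both outlying libraries (-2.87, adjusted p = 0.0587). In that comparison 5 targets fell, Abcc3, Cyp2c55, Cyp3a11, Cyp2c29 and Cyp2a5, the last 2 named after their values were seen. The calls of Abcc3 and Cyp2c55 held in all 12 fits with a library left out, and those of Cyp3a11, Cyp2c29 and Cyp2a5 in 2 of 12 each, with adjusted p of up to 0.0909, 0.093 and 0.0749 in the others. Without resmetirom replicate 1 the difference of Cyp3a11 was -4.87.

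Genes like Ces1e, the member with the smallest edgeR p over the 4 groups, were sought among 12110 tested genes with a mean of at least 1 CPM. The 4 most alike were Cyp2j5 (root mean square log2 difference 0.32 over the 12 livers), Uox (0.32), Ugt3a1 (0.33) and ENSMUSG00000128834 (0.34), where the median gene was at 0.94. Uox, urate oxidase, averaged 1704.6, 1287.6, 1314.8 and 443 CPM in control, MASH, EE and resmetirom livers.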

How the data were processed

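Liver RNA of 12 mice, 3 in each of 4 groups, was read as paired 150-base reads from stranded mRNA libraries, per the labels' protocols. The deposited table holds the authors' expected counts per gene, not scaled to a common total (91.5% to 93.3% of a library's values are whole). Per the submitters' processing notes, fastp and the build GRCm39 were used. The sources used here do not give the aligner, counter, annotation or counting strand.

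The counts were rounded, and Ensembl identifiers took symbols from a GRCm38 gene table (22603 of 28036 matched). One edgeR 4.0.16 quasi-likelihood fit in R 4.3.3 (filterByExpr, TMM, robust) held all 12 livers with 8 residual degrees of freedom, and p was adjusted by Benjamini-Hochberg over 13988 genes. The biological coefficient of variation was 0.334. SE is the log2 fold change divided by the square root of F. The design was written for raw counts, and the same test was kept for rounded expected counts.

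Scripts were tested on simulated counts. Alternatives were other scalings, DESeq2 1.42.0, limma 3.58.1 voom, other filters, only the groups compared, a replicate block, mitochondrial genes removed, each library left out, and control replicate 1 and resmetirom replicate 2 both left out. Added after seeing the data were the block with only the compared groups and the single-member permutation test with libraries left out. The exact permutation test reassigned the 12 livers to 4 groups of 3 on log2(CPM + 0.5). Whether replicate numbers pair the livers was checked on deviations from the group means: between MASH and EE all 3 same-numbered pairs correlated at 0.21 to 0.28 and the 6 others at -0.15 to -0.05, and no other pair of groups had all 3 above 0.1. A pair with different numbers, control replicate 1 and resmetirom replicate 2, correlated at 0.51. The labels say nothing of what a number shares. Fold changes are given for members whose 2 groups do not overlap or whose unadjusted p is below 0.05. The rule named all 10 members, up to 4 genes per list by smallest p, and the 5 genes most like 1 member, of which 1 is not reported here. Some genes the rule allows are left out. The members and lists were chosen with earlier results of these data known. A planned comparison of proteins was not run; nucleotide identity of the longest open reading frames stands in its place.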

Additional observations from a re-analysis of the deposited data

How the results depend on the processing

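Fold changes under the alternatives were followed only for members whose 2 groups did not overlap or whose edgeR unadjusted p was below 0.05. Of these differences, 1 turned direction under any alternative run: Ces1c in MASH against control, from -0.31 to 0.12 with library totals alone (adjusted p = 0.868). The other member differences were not followed, so smaller ones may turn as well. Of the alternatives of these differences, 501 kept direction and side of the threshold, 46 lost a call and 28 gained one. Counts of members called changed as follows. In MASH against control (0), DESeq2 and no filter gave 1. In EE against MASH (0), only the compared groups gave 3, and 5 with the replicate block, which changed no other member's call there. In resmetirom against MASH (1), library totals alone and only the compared groups, with or without the replicate block, gave 0, and DESeq2, limma voom and leaving out both control replicate 1 and resmetirom replicate 2 gave 2. In resmetirom against control (2), library totals alone and only the compared groups, with or without the block, gave 0, and DESeq2 and leaving out both libraries 3. In resmetirom against EE (1), library totals alone, the replicate block and only the compared groups, with or without the block, gave 0, DESeq2 and limma voom 2, and leaving out both libraries 3. Over all 4 groups (1), library totals alone and the replicate block gave 0, limma voom and no filter 2, DESeq2 3, and leaving out both libraries 4. Leaving out each library in turn gave 0 to 1 members in MASH against control, 0 in EE against MASH, 0 to 2 in resmetirom against MASH, 0 to 1 in EE against control, and 0 to 2 in resmetirom against control, in resmetirom against EE and over all 4 groups. Tested genes called ranged over the alternatives with all libraries or both outlying ones left out from 0 to 87 in MASH against control (2 reported), 0 to 2745 in EE against MASH (1), 0 to 657 in resmetirom against MASH (93), 0 to 589 in EE against control (14), 0 to 1560 in resmetirom against control (442), 3 to 417 in resmetirom against EE (43) and 48 to 1649 over all 4 groups (224). The exact permutation p of single members ranged, leaving out each library, from 0.00818 to 0.72 (Ces1c), 0.0291 to 0.487 (Ces1d), 0.00149 to 0.0269 (Ces1e), 0.0162 to 0.0364 (Ces1f), 0.0315 to 0.269 (Ces1g), 0.000455 to 0.0471 (Ces2a), 0.131 to 0.77 (Ces2c), 0.0323 to 0.269 (Ces2e), 0.00351 to 0.459 (Ces3a) and 0.0074 to 0.477 (Ces3b). The lowest of Ces1c and Ces3b were without resmetirom replicate 1, of Ces1g without resmetirom replicate 3. Leaving out both libraries gave 0.0308 for Ces1d and 0.00286 for Ces3a, and library totals alone 0.0543 for Ces1e. The family's mean share in MASH livers was 0.622% of all counts and 0.646% of nonmitochondrial counts. The replicate numbers were not taken as proof of pairing in any pair of groups. Outside EE and MASH, at most 2 of 3 same-numbered correlations of deviations exceeded 0.1 in each pair of groups (-0.39 to 0.30). The cause of these changes was not tested.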
